A study of Rattus norvegicus with 6 samples.

Results

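Island-like GABA nuclei of the rat nucleus accumbens are described here, a small population picked out by the dopamine receptor gene Drd3 and by Adamtsl1. A nucleus counted as a member if it met a rule on raw UMIs (unique molecular identifiers, each standing for 1 captured RNA molecule), once nuclei under 500 detected genes or over 5% mitochondrial UMIs had been removed. The rule asked for at least 2 UMIs of Gad1 and Gad2 together and at most 1 of the glial genes Mog, Aqp4, Pdgfra and Csf1r. It further asked for at least 2 Adamtsl1 UMIs, at least 1 Drd3 UMI and at least 3 of Adamtsl1, Drd3 and Tll1 together, with no Drd2 or Otof UMI and at most 1 each of Chst9 and Bnc2. It found 878 of 64260 barcodes, or 1.37%. Of the 61609 nuclei that passed the gene and mitochondrial filters, 28812 met the GABA and glial criteria and 2391 of those had at least 2 Adamtsl1 UMIs. Drd3 was detected in 1196 of these, and the limits on the other genes left the 878. Because measured values chose the members, their levels of Adamtsl1, Drd3, Tll1 and the other rule genes are descriptions.

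The study compared saline with naloxone, an opioid receptor antagonist, in Sprague-Dawley rats aged 90 to 120 days that had all self-administered heroin. The schedule required 1 response per infusion for 7 days and 3 responses for 4 days. A progressive ratio test followed on day 12 and the 3-response schedule on days 13 and 14, and the accumbens was taken 1 h after the injection. Each of 3 saline and 3 naloxone single-nucleus libraries (10x Genomics 3′ chemistry, here saline 1 to 3 and naloxone 4 to 6) pooled male and female tissue, and the number of rats per library is not given in the sources used here. No rat without heroin belongs to either group, so every comparison below is within a heroin history.

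The islands of Calleja are clusters of small, densely packed GABA granule neurons in the ventral striatum, lying in the olfactory tubercle and along the medial edge of the accumbens. They are known for some of the densest Drd3 expression in the brain. Drd3 encodes the D3 dopamine receptor, a Gi-coupled receptor of high dopamine affinity, and most granule neurons of this kind differ from spiny projection neurons in size and wiring. Adamtsl1 encodes a secreted ADAMTS-like matrix protein and Tll1 a tolloid-like metalloprotease that processes matrix and BMP-regulating proteins.

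The deposited matrices held 8094 to 15020 barcodes and 55739350 to 76272798 UMIs per library, 64260 barcodes in all beside the 44592 nuclei that the labels state. The 878 members gave 93 to 185 nuclei and 423485 to 1319685 UMIs per library. Their median depth was 4230 UMIs against 8305.5 in all other GABA nuclei. Member depth did not separate the treatment groups: the mean of library medians was 4167 UMIs ± 754 (SD, n = 3) with saline and 4412 ± 1444 with naloxone (2-sided exact permutation test, p = 0.9, smallest possible p = 0.1). Across libraries 463 barcodes recurred, of which 15 belonged to members, and none was a member in both of its libraries. A total of 73 members (8.31%) carried both Xist and Y-linked UMIs. By library the share ran from 3.06% in saline 1 to 12.5% in naloxone 5, against 7.14% to 10.8% of other GABA nuclei. Members were the shallower nuclei, so these shares do not compare doublet rates. Nuclei were also ranked by the share of simulated doublets among their nearest neighbours. The top 2649, a number set in advance by an assumed doublet rate of 0.4% per 1000 nuclei, were called doublets. Of these 23 were members. Levels below are CPM, the UMIs of a gene scaled to a common total over the summed nuclei of a library, given as mean ± SD over 6 libraries unless stated otherwise.

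Exph5 and Wnt2 are the 2 island markers that the rule did not use. The markers were chosen with earlier results of these data known, so their levels describe the members and are no independent check of the label. Exph5, which encodes a Rab27-binding protein of vesicle transport, stood at 88.9, 118 and 127 CPM in the saline libraries and 80.5, 58.1 and 117 CPM in the naloxone libraries. All other GABA nuclei together had 3.16 to 5.55 CPM, so the lowest member library lay far above the highest of those. Wnt2, a secreted Wnt ligand, stood at 76.5, 102 and 99.0 CPM with saline and 69.5, 96.9 and 95.5 CPM with naloxone. Wnt2 in other GABA nuclei was 5.56 CPM on average, and 1.22 CPM in Chst9 nuclei (a Chst9-high GABA population). At least 1 Exph5 UMI was found in 32.5% ± 9.88 of members and at least 1 Wnt2 UMI in 34.4% ± 7.05. After every nucleus was thinned to 1000 UMIs these shares were 12.3% and 9.26%, against 0.556% and 0.145% in oligodendrocyte nuclei, which should lack both genes (median 1845 UMIs unthinned, 9.8% of them left out as too shallow). Unthinned, the oligodendrocyte shares were 1.08% and 0.365%.

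The rule genes themselves, as a description, averaged 452 ± 66.3 CPM for Drd3, 1329 ± 242 for Adamtsl1 and 349 ± 49.1 for Tll1. Drd3 was 401, 404 and 442 CPM in the saline libraries and 486, 569 and 407 CPM in the naloxone libraries, with overlap between the groups. The median member held 5 Adamtsl1, 2 Drd3 and 1 Tll1 UMIs. At the edge of the rule, the 124 members with exactly 2 Adamtsl1 UMIs carried Exph5 in 22.6% and Wnt2 in 26.6%. The 118 nuclei left out only because they had 1 Adamtsl1 UMI carried them in 22.9% and 20.3%. The 624 nuclei left out only for lacking a Drd3 UMI had lower shares, 16.3% and 14.9%, at a higher median depth of 6708 UMIs. The 147 nuclei left out only for Otof carried Exph5 in 31.3% and Wnt2 in 32.7% (median 6957 UMIs). All members pooled had 32.7% and 34.3% at 4230 UMIs. The 69 left out only for Drd2 had 24.6% for both (10719 UMIs). Those left out only for Chst9 (16 nuclei) had 37.5% and 12.5%, and those for Bnc2 (3 nuclei) 0% and 33.3%. Relative to total UMIs, both markers were lower in each set left out than in members.

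**Figure D1:**
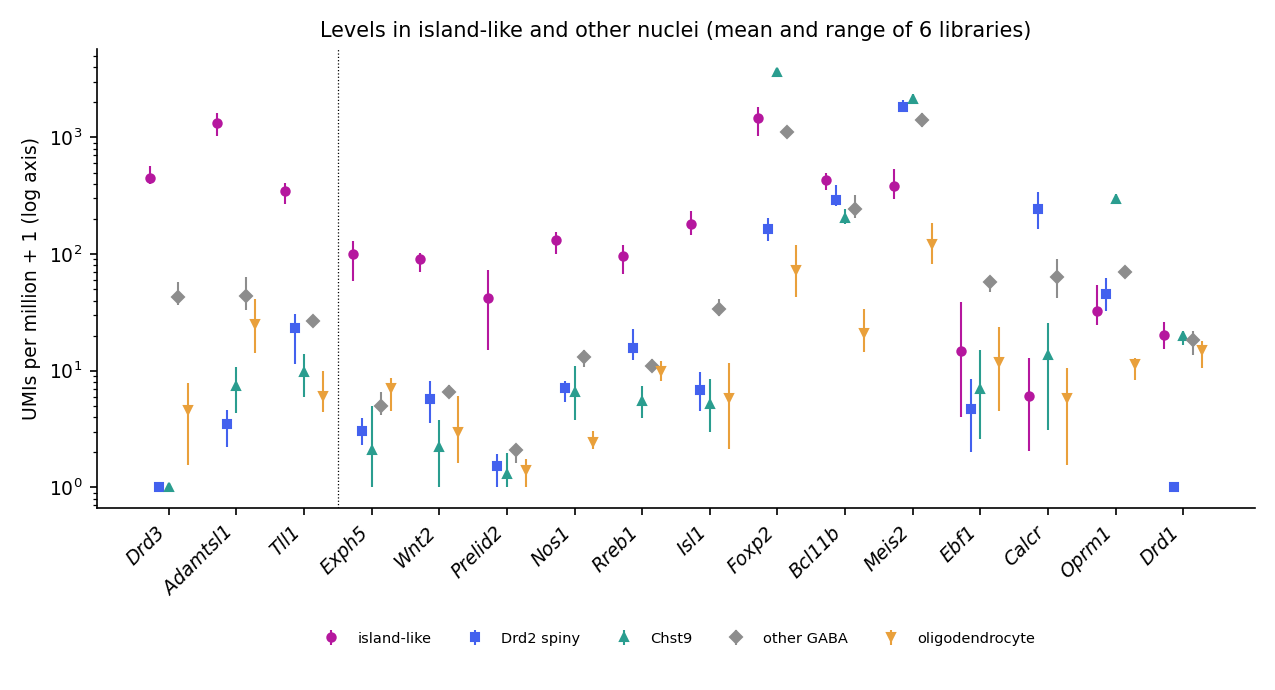
Levels (CPM plus 1, log axis) of 16 genes in island-like, Drd2 spiny, Chst9, other GABA and oligodendrocyte nuclei; points are means and bars the range of 6 libraries. Genes left of the dotted line were used by the rule; Exph5, Wnt2, Prelid2, Nos1, Rreb1 and Isl1 were higher in island-like than in other GABA nuclei, Meis2, Ebf1 and Calcr were lower, and the Drd1 mean was 19.4 CPM in island-like and 14.0 CPM in oligodendrocyte nuclei.

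Members were not uniform, and sub-clustering them separated 4 sets whose leading genes are descriptions of the same nuclei. Sub-clusters 1 (457 nuclei, 52.1%) and 2 (254 nuclei, 28.9%) carried the island markers at the highest levels, with Drd3 at 620 and 554 CPM, Exph5 at 138 and 150 CPM and Wnt2 at 122 and 121 CPM. Sub-cluster 1 was led by Neb, the actin filament protein nebulin, at 102 CPM against 18.4 CPM in the other members, followed by Rcsd1, Tmem132d and Greb1l. Sub-cluster 2 was led by the cytokine gene Il16, at 90.3 against 8.36 CPM, and by the collagen genes Col18a1 (76.2 against 15.3 CPM) and Col9a1 (117 against 32.9 CPM). It also led in Lrrk2, a Parkinson disease kinase gene, at 247 against 90.5 CPM.

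Sub-clusters 3 and 4 went against the label in part and stay unnamed. Sub-cluster 3 (114 nuclei) had a median of 8095.5 UMIs, 39.5% of its nuclei carried both Xist and Y-linked UMIs and 17.5% were called doublets, against 3.501% and 0% in sub-cluster 1. It was led by the metabotropic glutamate receptor gene Grm3, by the oligodendrocyte gene Bcas1 (395 against 13.4 CPM) and by the glutamate transporter gene Slc1a2, and Drd3 was 243 and Exph5 38.4 CPM. Sub-cluster 4 (53 nuclei, median 10473 UMIs) held Drd3 at 129 CPM and Exph5 at 4.40 CPM. Its leading genes were Alk, Zfp804b, Ndst4 and Elavl2, and Slc5a7, the choline transporter of cholinergic neurons, stood at 172 against 1.47 CPM. It made up 3.14% to 11.2% of the members of a library, with 18 of its 53 nuclei in naloxone 5. For several genes, values by sub-cluster are also given, without a test, because the sub-clusters were found in these data.

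**Figure D2:**
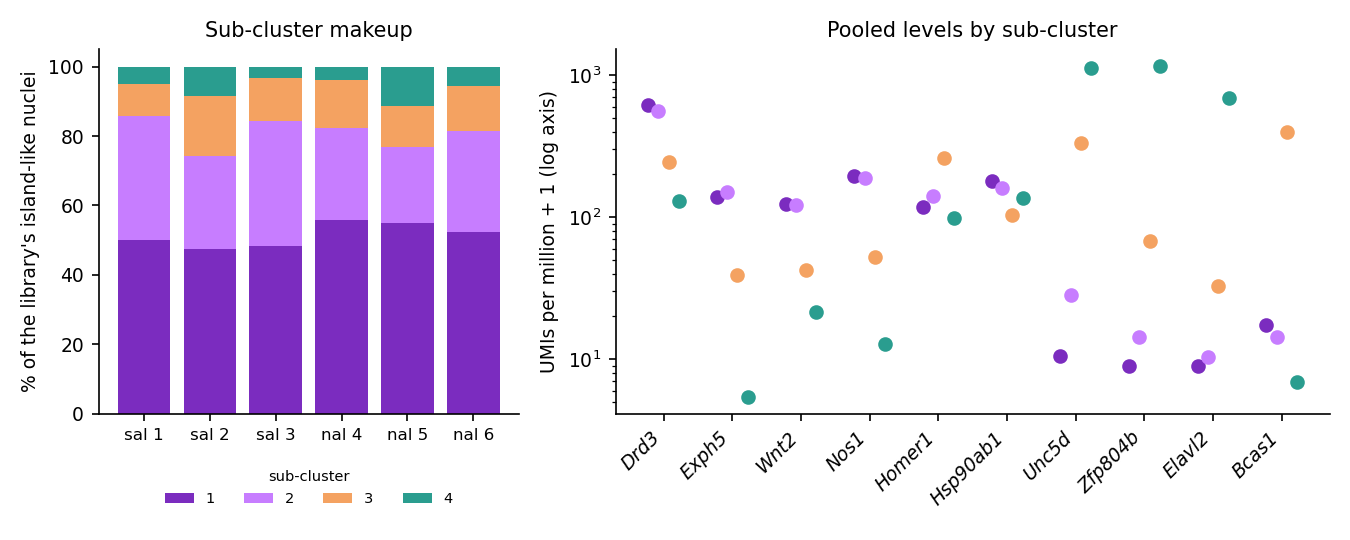
Left, the share of each library's island-like nuclei in sub-clusters 1 to 4 (sal, saline; nal, naloxone). Right, pooled levels (CPM plus 1, log axis) in the sub-clusters: Drd3, Exph5, Wnt2 and Nos1 were highest in sub-clusters 1 and 2, while Unc5d, Zfp804b and Elavl2 were highest in sub-cluster 4 and Bcas1 in sub-cluster 3.

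Outside the rule genes, 245 of 5094 genes with at least 30 CPM in members (4.81%) were over 2-fold higher in members than in other GABA nuclei in every library. In the other direction, 290 of 4940 genes with at least 30 CPM in other GABA nuclei (5.87%) were over 2-fold lower in members in every library. These genes come from the nuclei that the rule selected, and no test was made. The 20 highest ratios belonged to genes of signalling, cytoskeleton, chromatin and secretion alongside several of little-known role. Prelid2 had the highest, at 40.9 ± 19.5 CPM in members against 1.10 CPM in other GABA nuclei, and ranged from 14.2 CPM in saline 2 to 72.3 CPM in saline 1. Others among the 20, with no order implied, were Slfn5 (42.3 against 1.52 CPM), AABR07064584.1 (199.7 against 8.99 CPM), Rcsd1 (64.5 against 3.004 CPM) and Cmtm8 (46.8 against 2.23 CPM). C1h10orf90 (119 against 8.09 CPM) stood at 894 CPM in oligodendrocyte nuclei, and the part of oligodendrocyte RNA in its level was not tested.

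Among the leading signalling genes, Lpar6, a receptor for lysophosphatidic acid, was 66.2 CPM in members and 2.79 CPM in other GABA nuclei. Prkcq, the protein kinase C theta gene, stood at 194 against 9.29 CPM, with 228 CPM in oligodendrocyte nuclei, and Lgr6, an R-spondin receptor of Wnt signalling, at 183 against 21.5 CPM. Lats2, a kinase of the Hippo pathway, was 101 against 7.06 CPM. Nos1, the neuronal nitric oxide synthase, was 128, 113 and 147 CPM with saline and 137, 99.9 and 155 CPM with naloxone, against 12.1 CPM in other GABA nuclei. Nos1 is also a marker of somatostatin interneurons, and their markers Sst and Npy were 7.59 and 3.83 CPM in members. Nos1 was higher in sub-clusters 1 and 2 (194 and 188 CPM) than in 3 and 4 (51.2 and 11.7 CPM).

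Secreted and structural genes among the 20 were Prok2, which encodes prokineticin 2 (31.1 against 3.01 CPM), Col18a1 (31.6 ± 24.4 against 3.12 CPM), Frmpd1 (89.2 against 5.56 CPM), Neb (48.8 against 3.11 CPM) and Pdlim3 (35.8 against 3.32 CPM). Col18a1 varied most, from 9.48 CPM in saline 3 to 78.3 CPM in naloxone 4. Baz1a, a subunit of a chromatin remodelling complex, was 130 against 10.9 CPM, and the zinc finger factor gene Rreb1 was 95.05 against 10.03 CPM.

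The 10 lowest ratios included Calcr, the calcitonin receptor (5.09 CPM in members against 62.5 in other GABA nuclei and 241 in Drd2 spiny nuclei), and Grm8, a group III metabotropic glutamate receptor (87.1 against 612 CPM). Maf, Eya2, Inf2, Necab1, Enox2, Col19a1, Sema3a and Ldb2 were the others, with Ldb2, a cofactor of LIM-homeodomain factors, at 90.8 against 431 CPM. Grm8 reached 186.5 CPM in saline 2 and was 47.6 CPM under a stricter rule (at least 4 Adamtsl1 and 2 Drd3 UMIs).

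Of 34 striatal and interneuron transcription factor genes, 24 stood at 5 CPM or more in members. Of these 13 were higher and 4 lower than in other GABA nuclei in each of 6 libraries, beside 17.8% and 13.3% of all 10330 genes at that level. Isl1, a LIM-homeodomain factor of direct-pathway and cholinergic neurons, was 165, 144 and 189 CPM with saline and 161, 233 and 199 CPM with naloxone, against 32.8 CPM in other GABA nuclei. Foxp2 (1458 ± 300 CPM) lay between Drd2 spiny nuclei (164 CPM) and Chst9 nuclei (3626 CPM), and Bcl11b was 434 ± 49.4 against 241 CPM in other GABA nuclei. Tox2 (164 against 47.6 CPM), Casz1 (67.7 against 18.2 CPM), Bcl11a (326 against 218 CPM) and Zfhx3 (155 against 114 CPM) were also higher. Meis2 was 382 ± 82.5 against 1404 CPM, Foxp1 422 against 741 CPM, and Ebf1, a marker of direct-pathway spiny neurons, 13.7 against 56.9 CPM.

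Of the other dopamine receptor genes, Drd4 and Drd5 had no UMI in members, and the rule itself set Drd2 to 0. Drd1 averaged 19.4 ± 4.81 CPM in members, 17.3 CPM in other GABA nuclei and 14.0 CPM in oligodendrocyte nuclei. After thinning to 1000 UMIs, 2.44% ± 1.06 of members and 1.6% ± 0.367 of oligodendrocyte nuclei held a Drd1 UMI. At 2000 UMIs the shares were 4.53% ± 1.53 and 2.09% ± 0.581, with 57.2% of oligodendrocyte nuclei left out as too shallow. Without thinning they were 9.53% and 2.75%. Sub-clusters 1 and 2 together held 25.5 CPM (18.1 to 36.3 by library), and sub-clusters 3 and 4 held 12.8 and 4.41 CPM. Of 15 measured genes of dopamine and cAMP signalling, 1 was higher and 7 lower than in other GABA nuclei in every library, beside 17.8% and 13.3% of all genes. Ptpn5, the striatal-enriched phosphatase STEP, was the higher one at 245 against 147 CPM, while the phosphodiesterase genes Pde10a (339 against 1376 CPM) and Pde7b (301 against 739 CPM) were low. The adenylyl cyclase gene Adcy5 (475 against 382 CPM) and the olfactory-type G protein gene Gnal (689 against 571 CPM) were above other GABA nuclei in 5 of 6 libraries.

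Opioid receptor genes, which encode the targets of heroin metabolites and of naloxone, were low in members. The mu receptor gene Oprm1 was 53.7, 23.6 and 25.3 CPM in the saline libraries and 27.6, 32.8 and 28.0 CPM in the naloxone libraries. Saline 1 stood above the other 5 libraries, which lay close together, and the groups overlapped. Chst9 nuclei had 294 CPM, 9.25-fold more. Within the members, Oprm1 was 10.2 CPM in sub-cluster 1 and 21.0 CPM in sub-cluster 2, against 39.4 CPM in sub-cluster 3 and 86.7 CPM in sub-cluster 4. Oligodendrocyte nuclei held 10.4 CPM, the level of sub-cluster 1. The kappa and delta receptor genes Oprk1 and Oprd1 were 6.69 and 6.71 CPM, both lower than in other GABA nuclei (19.1 and 22.1 CPM). The opioid peptide gene Penk was 44.4 CPM and Pdyn 8.604 CPM, against 98.7 and 9.41 CPM in oligodendrocyte nuclei.

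In the Wnt list of 40 ligands, receptors and inhibitors, 13 genes stood at 5 CPM or more, of which 4 were higher and 2 lower than in other GABA nuclei in every library. The shares of all genes at that level were 17.8% and 13.3%, and the Wnt and BMP counts rest on few genes. In the list of 26 tolloid and BMP pathway genes, 12 stood at that level, with 3 higher and 0 lower. Tll1, among these 3, was used by the rule, so its place in the count was set in advance. Wnt2 is itself an island marker. Besides Tll1, the ligand gene Bmp3 was 12.5 against 1.09 CPM and Smad5, a transducer of BMP signals, 33.4 against 20.2 CPM. Among 16 measured genes of immature neurons, Robo1, an axon guidance receptor, was 7049 ± 579 CPM against 5052 CPM, Robo2 was 275 against 811 CPM, and Dcx (doublecortin) was 106.5 against 107 CPM.

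Markers of other cell types were summed over each list. The 2 measured cholinergic markers (Slc5a7 and Tacr1; Chat and Slc18a3 are not analysed here) summed to 43.2 to 78.5 CPM with saline and 27.6 to 99.9 CPM with naloxone. In sub-clusters 1 and 2 together they summed to 2.62 CPM, and in sub-cluster 4 to 417 CPM. The 5 oligodendrocyte markers summed to 236 to 455 CPM with saline and 271 to 425 CPM with naloxone, with all 5 above 0. The 4 glutamatergic markers summed to at most 4.47 CPM in any library. The 5 markers of eccentric spiny neurons summed to 1036 CPM in members and 348 CPM in other GABA nuclei on average. The rule itself set 1 of them, Otof, to 0. Of the 3 at 5 CPM or more, 2 were higher and 1 lower in every library, beside 17.8% and 13.3% of all genes. Oligodendrocyte precursor (99.3 against 29.5 CPM) and astrocyte (79.2 against 42.2 CPM) sums were also higher. Bnc2 (13.5 against 48.8 CPM) and ependymal (56.6 against 143 CPM) sums were lower. The part of these other-cell transcripts in the levels above was not tested.

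Island-like nuclei made up 2.42% (Wilson 95% interval 1.99 to 2.94), 1.40% (1.14 to 1.71) and 3.78% (3.24 to 4.40) of GABA nuclei in the saline libraries. In the naloxone libraries they made up 4.06% (3.53 to 4.68), 3.004% (2.58 to 3.497) and 4.56% (3.96 to 5.25). The groups overlapped through saline 3 and naloxone 5. The mean difference was 1.35 percentage points (2.53% ± 1.20 against 3.88% ± 0.797, n = 3 each; 2-sided exact permutation test, p = 0.2, smallest possible p = 0.1), so the shares were not shown to differ. With every nucleus thinned to 3000 UMIs before the rule was applied, the difference was 0.599 points (exact permutation test, p = 0.7). Intervals cover counting error only.

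**Figure D3:**
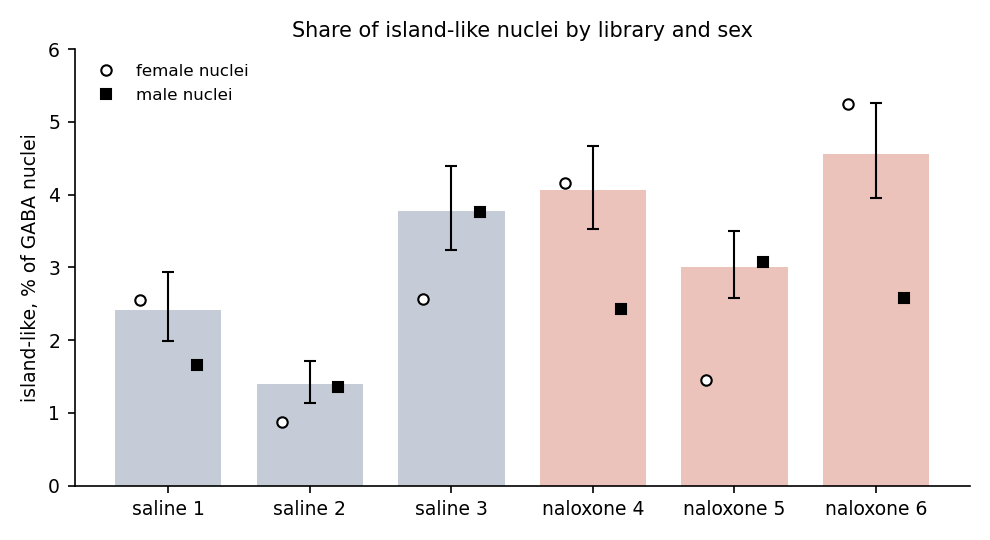
Bars give island-like nuclei as a percentage of GABA nuclei in each library with Wilson 95% intervals; open circles are female nuclei and squares male nuclei, each as a percentage of GABA nuclei of that sex. The share ran from 1.40% in saline 2 to 4.56% in naloxone 6, and the sex with the larger share differed between libraries.

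The share also varied by sex within a library. Nuclei with at least 2 Xist and no Y-linked UMIs were counted as female, and those with at least 1 UMI of Ddx3y, Uty, Kdm5d or Eif2s3y and no Xist as male, which placed 308 and 278 members. Female nuclei were 58.6%, 36.8% and 39.8% of sexed members with saline and 65.6%, 37.8% and 64.9% with naloxone. The same share in other GABA nuclei stayed between 46.8% and 56.6%. Members spread more widely (SD 13.9 against 3.76 points), with 3 libraries above and 3 below. The mean difference was 0.483 points (2-sided exact sign-flip permutation test over 6 libraries, p = 0.906). Sexed members were far fewer, in saline 2 for example 21 female and 36 male beside 2416 and 2666 sexed GABA nuclei. Counting error is therefore larger for members, and its part in their spread was not tested. Among GABA nuclei of each sex, members were 5.25% of female and 2.57% of male nuclei in naloxone 6 but 1.45% and 3.07% in naloxone 5. The number of rats per pool is not given, so a difference between animals and a difference between sexes cannot be told apart.

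Naloxone was then compared with saline in the summed members, with edgeR's quasi-likelihood test and Benjamini-Hochberg adjustment over 7930 genes. It called 1 gene (0.0126%), and 484 had an unadjusted p under 0.05, 243 higher (3.06%) and 241 lower (3.04%). The count was 3 without saline 1, 11 without saline 2, 8 without saline 3, 0 without naloxone 4, 3 without naloxone 5 and 1 without naloxone 6, and DESeq2 gave 2.

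The gene called was Zfp804b, which encodes a zinc finger protein. It was 107, 54.3 and 66.4 CPM with saline and 280, 335 and 208 CPM with naloxone, a log2 change of 1.84 ± 0.22 (SE; edgeR adjusted p = 0.0067). All naloxone libraries lay above all saline libraries. Sub-cluster 4 held the transcript: 1163 CPM there against 10.1 CPM in sub-clusters 1 and 2 together, where saline averaged 12.4 and naloxone 8.07 CPM. Within sub-cluster 4 it was 920, 127 and 599 CPM with saline and 2171, 1297 and 1159 CPM with naloxone, from 5 to 18 nuclei per library. The call was lost without naloxone 4 (edgeR adjusted p = 0.121), with doublets removed (log2 1.89, adjusted p = 0.0503), with sums by sex of the sexed members and sex as covariate (log2 1.60, adjusted p = 0.771), under the stricter rule (log2 2.65, adjusted p = 0.551) and under a wider rule without the limits on Drd2, Chst9, Otof and Bnc2 (log2 0.67, adjusted p = 0.836).

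None of the next genes passed, and their values are given by the rule of smallest unadjusted p with groups that do not overlap. On the higher side were Thsd7b (log2 0.85), Grik3, a kainate receptor subunit (1.24), Camk2g, a calcium/calmodulin kinase subunit (1.03), the unnamed ENSRNOG00000065796 (0.66) and LOC103692025 (0.49, at 453, 456 and 454 CPM with saline and 641, 690 and 596 CPM with naloxone). On the lower side were Chordc1 (-1.03), Stk32a (-1.84), Homer1 (-0.64), Hsp90ab1 (-0.64) and the cadherin gene Cdh9 (-0.93). The edgeR adjusted p-values of these 10 ran from 0.118 to 0.255. ENSRNOG00000065796 is itself far higher in female nuclei. Among sexed members, female nuclei were 58.6%, 36.8% and 39.8% in saline 1 to 3. In naloxone 4 to 6 they were 65.6%, 37.8% and 64.9%. The part of this makeup in the change of ENSRNOG00000065796 was not tested.

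Heat shock and chaperone genes lay low with naloxone as a list. Of 30 genes 23 were tested and none passed adjustment, while 9 had an unadjusted p under 0.05 and a lower level, against 3.04% of all genes. In 10 of the 23 every naloxone library was below every saline library, against 5.79% of all genes, and in 0 was every one above, against 5.81%. The median log2 change of the list was -0.39, beside 0.00 over all genes, and stayed between -0.48 and -0.35 with each library left out. Chordc1, a cochaperone of HSP90, was 114, 68.5 and 110 CPM with saline and 51.8, 32.8 and 56.1 CPM with naloxone (log2 -1.03 ± 0.22, edgeR adjusted p = 0.118). Hsp90ab1, the constitutive cytosolic HSP90, was 155, 208 and 203 against 118, 99.9 and 141 CPM (log2 -0.64 ± 0.16, adjusted p = 0.205). Hsph1, an HSP110 nucleotide exchange factor, was 213, 217 and 195 against 139, 121 and 157 CPM.

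The low levels were also seen in the 711 nuclei of sub-clusters 1 and 2, where the summed list was 1694 to 2235 CPM with saline and 1370 to 1461 CPM with naloxone. In all members it was 1659 to 1809 and 1321 to 1417 CPM, again with no overlap. The list had been known from other nuclei of the same libraries to be low with naloxone, and so its direction here is not independent evidence. Its median log2 change was -0.17 in Drd2 spiny nuclei, with 2 of 27 genes called lower by edgeR. Of all 11964 genes tested there, 17 were called lower (0.443% called in either direction). In Chst9 nuclei the list median was -0.29, with 2 of 25 genes called lower. Of all 9052 genes tested in Chst9 nuclei, 4 were called lower (0.177% in either direction). In Drd1 spiny nuclei the list median was -0.36, close to the -0.39 of members. There 13 of 14 tested list genes were lower, beside 2330 of all 4768 genes, and 0 were called lower. The fits that compared the naloxone response of members with that of Drd2 spiny nuclei gave a difference of -0.51 for Hsp90ab1 (edgeR adjusted p = 0.822) and 0.07 for Hsph1 (adjusted p = 1).

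Because these genes lay low together, the 250 bases before the RefSeq start site (GRCr8, given 5′ to 3′ on the gene's strand) were searched for the paired heat shock element, GAANNTTC or TTCNNGAA. Each form is its own reverse complement, so both strands are covered, and overlapping matches were counted separately. Of 26 list genes with a promoter entry 12 held a match, against 14.3% of the 27457 genes in the table, and among the 10 genes with every naloxone library lower 5 of 9 with an entry did. The windows of Hspd1 and Hspe1 overlap, and both genes were counted. The list was picked as heat shock genes, so its share against all genes does not bear on the naloxone levels. Whether the element has a part in those levels was not tested. Hsph1, Dnaja1 and Chordc1 are shown because the first 2 hold matches, in capitals, and Chordc1, the lowest by log2 change, holds none in this window. Hsph1 lies at chr12:10427118-10427367, Dnaja1 at chr5:60638154-60638403 and Chordc1 at chr8:23650571-23650820, all on the plus strand. A match is a letter pattern and not a measured binding site.
Hsph1: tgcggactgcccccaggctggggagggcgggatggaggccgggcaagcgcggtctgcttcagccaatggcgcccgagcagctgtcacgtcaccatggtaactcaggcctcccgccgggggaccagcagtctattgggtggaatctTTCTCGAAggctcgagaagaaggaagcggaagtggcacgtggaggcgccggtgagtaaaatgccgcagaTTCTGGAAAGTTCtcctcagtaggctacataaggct
Dnaja1: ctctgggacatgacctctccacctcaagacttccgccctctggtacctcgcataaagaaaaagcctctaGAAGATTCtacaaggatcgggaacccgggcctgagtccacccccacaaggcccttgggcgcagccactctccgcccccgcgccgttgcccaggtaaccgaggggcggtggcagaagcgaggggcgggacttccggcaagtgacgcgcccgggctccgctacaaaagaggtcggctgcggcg
Chordc1: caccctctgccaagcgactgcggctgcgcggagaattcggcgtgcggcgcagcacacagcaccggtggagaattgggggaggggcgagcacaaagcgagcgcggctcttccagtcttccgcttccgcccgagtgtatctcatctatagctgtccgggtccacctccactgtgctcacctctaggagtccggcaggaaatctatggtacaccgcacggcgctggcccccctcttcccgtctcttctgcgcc

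The remaining lists held no called gene. Of the 2 island markers outside the rule, Exph5 had a log2 change of -0.35 (edgeR adjusted p = 0.909) and Wnt2 of -0.09 (adjusted p = 0.986). Of 15 tested dopamine and cAMP signalling genes 13 were lower, against 50.8% of all genes lower, with a median of -0.12. Of the 15, 2 were lower at an unadjusted p under 0.05, Arpp21 (-0.38) and Pde7b (-0.48), beside 3.04% of all genes. The vesicular GABA transporter gene Slc32a1 was 0.69 higher (edgeR adjusted p = 0.811), whereas Gad1 and Gad2 changed by 0.08 and -0.04. Only 3 of 26 immediate early genes were abundant enough to test. Dusp1 and Junb are not analysed here. A list of 24 genes that changed with naloxone in spiny neurons of these same libraries had 15 tested in members. None was called, and 7 were lower and 2 higher at an unadjusted p under 0.05, beside 3.04% and 3.06% of all genes. The choice of the list on these samples makes it no independent evidence.

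The naloxone response of members was compared with that of Drd2 spiny nuclei (2983 nuclei with at least 2 Drd2 UMIs), which are indirect-pathway projection neurons, in 1 model with the library as a block. Of 11656 genes 5 differed (0.0429%; edgeR adjusted p under 0.05): Homer1, Nr4a3, Siah3 and Epb41l4b had a lower response in members and Col5a3 a higher one. The count was 2 without saline 1, 20 without saline 3 and 12 without naloxone 5. Homer1 encodes a postsynaptic scaffold of metabotropic glutamate receptors and has an activity-induced short form that these 3′ counts do not separate. Homer1 was 194, 224 and 180 CPM in saline members and 117, 155 and 113 CPM in naloxone members. In Drd2 spiny nuclei it was 292, 289 and 286 CPM with saline and 393, 473 and 591 CPM with naloxone.

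The groups did not overlap in either population, and they ran in opposite directions. The difference in log2 change was -1.40 ± 0.18 (SE; edgeR adjusted p = 0.00014). It stayed between -1.54 and -1.16, with adjusted p of 0.018 or less, when any library was left out, and DESeq2 gave an adjusted p of 0.00021. The change within Drd2 spiny nuclei was 0.76 (edgeR adjusted p = 0.044), while that within members was -0.64 (adjusted p = 0.142) and did not pass on its own. In the 711 nuclei of sub-clusters 1 and 2, Homer1 was 172, 118 and 184 CPM with saline and 84.6, 113 and 102 CPM with naloxone. All naloxone values were again below all saline values there, and in sub-cluster 1 alone. In sub-cluster 2 alone the groups overlapped, with saline 2 at 99.4 CPM and naloxone 6 at 113 CPM. They also overlapped in sub-cluster 3 (means of 351 CPM with saline and 218 CPM with naloxone). In sub-cluster 4 Homer1 ran the other way, at 62.7 CPM with saline and 118 CPM with naloxone.

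Nr4a3, an orphan nuclear receptor and immediate early gene, was 14.5, 30.7 and 19.0 CPM in saline members and 1.10, 7.45 and 4.55 CPM in naloxone members, from 7, 13 and 18 UMIs and 1, 5 and 6 UMIs. In Drd2 spiny nuclei it was 7.86, 10.7 and 5.12 CPM with saline and 10.04, 21.6 and 30 CPM with naloxone. The groups did not overlap in members, whereas in Drd2 spiny nuclei saline 2 lay above naloxone 4. The difference from Drd2 spiny nuclei was -3.87 ± 0.48 (edgeR adjusted p = 0.00014), and it passed with every library left out and with DESeq2 (adjusted p = 0.00021). No such difference was called against the other populations. Drd1 spiny nuclei held 108.5, 24.1 and 49.4 CPM with saline and 5.48, 15.3 and 0 CPM with naloxone (difference 1.31). Chst9 nuclei averaged 6.15 CPM with saline and 3.24 CPM with naloxone, with overlap (difference -1.24). The lower response in members was thus shown against Drd2 spiny nuclei only. Few UMIs stand behind the member values, and their location differed from that of Homer1: sub-cluster 3 held 24.6 CPM, sub-cluster 2 held 14.0 CPM and sub-cluster 1 held 1.13 CPM. In sub-clusters 1 and 2 together, Nr4a3 was 6.02, 0 and 24.8 CPM with saline and 0, 0 and 1.15 CPM with naloxone, from 20 UMIs in all. Saline 3 held most of that signal, and saline 2, naloxone 4 and naloxone 5 had none.

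**Figure D4:**
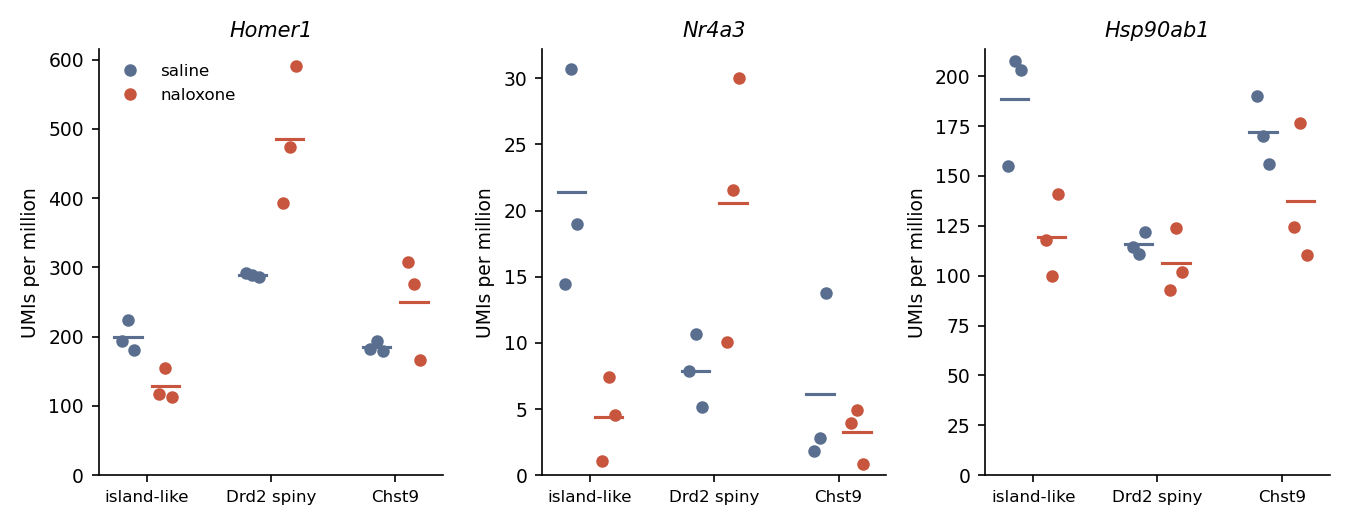
Levels (CPM) of Homer1, Nr4a3 and Hsp90ab1 in each saline and naloxone library of island-like, Drd2 spiny and Chst9 nuclei; points are libraries and lines group means. Homer1 lay lower with naloxone in island-like nuclei (113 to 155 against 180 to 224) and higher in Drd2 spiny nuclei, and Hsp90ab1 lay lower in island-like nuclei.

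The other 3 genes kept their calls in fewer of the fits with a library omitted. Siah3 was 31.0, 42.5 and 26.3 CPM with saline and 11.03, 20.9 and 23.5 CPM with naloxone in members, with no overlap and a difference of -1.98 (edgeR adjusted p = 0.020). Epb41l4b, a FERM-domain protein gene, differed by -1.02 (adjusted p = 0.020) and Col5a3, a fibrillar collagen gene, by 3.5 (adjusted p = 0.019). Within Drd2 spiny nuclei the log2 changes were 1.16 for Siah3, 0.76 for Epb41l4b and -1.98 for Col5a3. Within members they were -0.75 for Siah3 and -0.25 for Epb41l4b, neither of them called, and Col5a3 was not tested there. Col5a3 was under 10 CPM in every member library except naloxone 5, where it was 35.8 CPM from 24 UMIs. Its pooled level was 30.5 CPM in sub-cluster 3 and 5.89 CPM in sub-clusters 1 and 2 together. Siah3, Epb41l4b and Col5a3 kept their calls in 2, 3 and 3 of 6 fits with a library omitted, and none was called by DESeq2 (adjusted p of 0.117 to 0.416).

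Against Chst9 nuclei (1112 nuclei with at least 3 Chst9 UMIs, high in Oprm1 and Grm8), 1 of 9518 genes differed (0.0105%), and it was again Homer1. The count was 2 without naloxone 4 or naloxone 6 and 6 without naloxone 5. It was 182, 193 and 179 CPM with saline and 308, 276 and 166 CPM with naloxone in Chst9 nuclei, so naloxone 6 lay below the saline libraries. The difference was -1.04 ± 0.19 (edgeR adjusted p = 0.038). The call held in 2 of the 6 fits without a library, being lost without saline 1, saline 2, saline 3 or naloxone 4 (adjusted p up to 0.342), and DESeq2 called no gene here (adjusted p = 1 for Homer1, 58 genes unadjusted). Below the threshold were Hs3st5 (1.35), Prr16 (0.66), Grik3 (1.20), LOC103692025 (0.66) and Gnai1 (0.87) on the higher side and Cdh9 (-1.70), Siah3 (-1.77), Nckap5 (-0.87), Tshz2 (-0.97) and Fat4 (-1.65) on the lower side, with edgeR adjusted p of 0.108 to 0.278.

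The Drd1 spiny nuclei (direct-pathway neurons with at least 2 Drd1 UMIs) were only 164, or 19 to 37 per library. Against them 2 of 6876 genes differed (0.0291%), and none did without saline 1, saline 2, saline 3 or naloxone 4. Arid5b, a DNA-binding chromatin factor gene, was 154 to 194 CPM in all member libraries, and in Drd1 spiny nuclei 81.4, 72.4 and 79.6 CPM with saline and 203, 287 and 198 CPM with naloxone (difference -1.53, edgeR adjusted p = 0.042). Alk, a receptor tyrosine kinase gene and the leading gene of sub-cluster 4, was 59.9, 132 and 31.6 CPM with saline and 200, 148 and 199 CPM with naloxone in members and differed by 1.74 (edgeR adjusted p = 0.042). In sub-clusters 1 and 2 together Alk was 0 to 6.02 CPM with saline and 2.31 to 10.4 CPM with naloxone, 14 UMIs in all, against 889 CPM in sub-cluster 4. Arid5b was called in 1 and Alk in 0 of the 6 fits without a library, and DESeq2 called no gene (52 at an unadjusted p under 0.05). Among the genes that did not pass were Enpp2 (3.24), Fstl1 (1.54), Glra2 (1.84), Srrm4 (1.32) and Cenatac (1.80) above and LOC120102377 (-3.14), Pde1c (-1.45), Stk32a (-1.78), Taf1b (-1.93) and Mrtfa (-0.89) below. With Drd1 spiny nuclei widened to at least 1 Drd1 UMI, a choice made after the data were seen, the 1 gene called was Homer1 (-0.98, edgeR adjusted p = 0.025), which had not passed with at least 2 UMIs (-0.79, adjusted p = 1). Arid5b was then -0.38 (adjusted p = 1) and Alk 1.36 (adjusted p = 0.990). These fits share the member libraries, so they are not independent of each other.

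Female and male members were compared within libraries, leaving out the genes used for sexing. Of 3806 genes 2 were called by edgeR (0.0525%), both higher in female nuclei. ENSRNOG00000065796, an identifier without a symbol in the files or in the RefSeq table, was 267 ± 50.9 CPM in female and 3.97 ± 3.82 CPM in male members (log2 5.94, edgeR adjusted p = 7.6e-10). It was as far apart in Drd2 spiny nuclei (6.67), Chst9 nuclei (6.91) and other GABA nuclei (6.79).

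The second was Unc5d, a netrin receptor of neuronal migration and axon guidance. In the 6 libraries in order it was 376, 689, 207, 434, 528 and 356 CPM in female members and 124, 146, 54.2, 239, 223 and 120 CPM in male members. It was higher in female members in 6 of 6 libraries (log2 1.53 ± 0.16, edgeR adjusted p = 2.8e-05), and the call held with each library left out (adjusted p of 0.0011 or less) but not without the library block (adjusted p = 0.627). In Drd2 spiny, Chst9 and other GABA nuclei the female to male log2 difference was 0.15, 0.16 and 0.16, and none was called. The difference between members and Drd2 spiny nuclei was 1.36 ± 0.37 (edgeR adjusted p = 1) and between members and Chst9 nuclei 1.37 ± 0.36 (adjusted p = 0.974), so the sex difference was not shown to be particular to members. edgeR called 0 of 8759 genes (0%) in the first of these fits, with 1.88% higher and 2.15% lower at an unadjusted p under 0.05. It called 0 of 6633 in the second, with 2.32% higher and 2.29% lower, and DESeq2 called 0 in both.

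Unc5d sat mostly outside the sub-clusters with the highest island markers. Its pooled level was 17.0 CPM in sub-clusters 1 and 2 together, 331 CPM in sub-cluster 3 and 1115 CPM in sub-cluster 4, while other GABA nuclei averaged 855 CPM in females and 762 CPM in males. In sub-clusters 1 and 2 the pooled levels were 22.6 CPM in 254 female and 11.7 CPM in 238 male nuclei. In sub-cluster 3 they were 583 CPM in 26 female and 238 CPM in 25 male nuclei, and in sub-cluster 4 1433 CPM in 28 female and 721 CPM in 15 male nuclei. The female level was the higher in each of these sets. Sub-cluster 1 alone, with 3 female and 8 male UMIs, was the exception (4.64 against 14.9 CPM), and sub-cluster 4 also held more female than male nuclei. The part of that makeup in the summed difference was not tested.

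**Figure D5:**
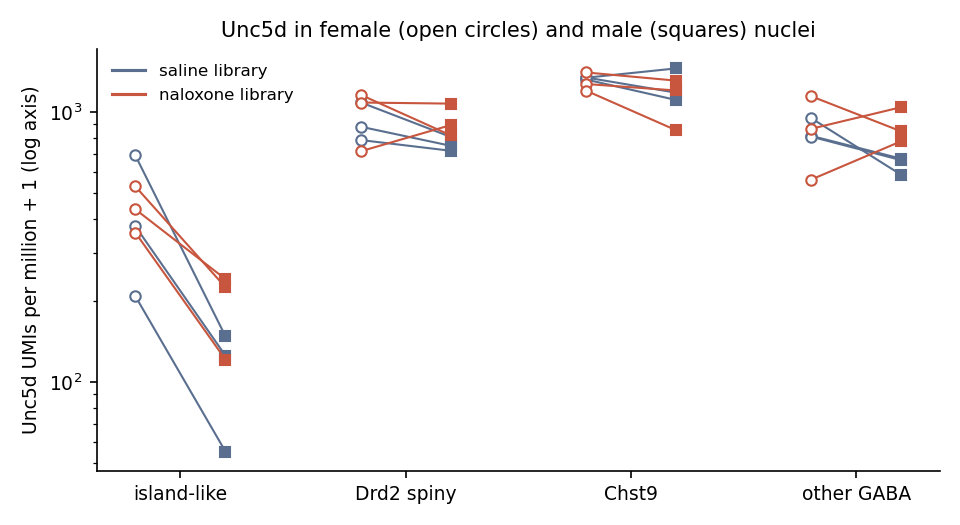
Unc5d (CPM plus 1, log axis) in female (open circles) and male (squares) nuclei of each library, joined by lines, for 4 populations. In island-like nuclei the female value was above the male value in 6 of 6 libraries, and every male value lay below every male value of the other populations.

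Genes next in order between the sexes did not pass: Acaca (0.56), Rasa2 (0.53), Ogdh (0.61), Ank1 (0.56) and Sobp (0.76) were higher in female members and Gng7 (-0.44), Chic2 (-0.78), Usp6nl (-0.66) and Lgr6 (-0.42) lower, each in all 6 libraries (edgeR adjusted p of 0.725 to 1). Whether the naloxone response differed between female and male members was tested over 4571 genes. edgeR called none (0%), DESeq2 called none (12 at an unadjusted p under 0.05), and 127 genes had an unadjusted edgeR p under 0.05, with 1.38% of genes higher and 1.4% lower. Among the smallest p-values with groups that do not overlap were those of AABR07027925.1 (4.0), Unc13c (1.53), Evi5l (1.61) and Pigf (1.39) on the higher side and Nckap5 (-2.26), Zfhx4 (-2.61), Kcnh7 (-1.09), Nnat (-0.94) and Phc3 (-0.85) on the lower, all with an edgeR adjusted p of 1. These fits rested on 21 to 85 sexed members of a sex per library.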

How the data were processed

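Gene by nucleus matrices of UMI counts were deposited by the authors for 3 saline and 3 naloxone libraries. Cell Ranger 9.0.1, Seurat 5.2.1, R 4.4.0 and the build mRatBN7.2 are named, without their roles, per the submitters' processing notes. The deposited counts are not normalized, and 3′ counts are compared between nuclei and not between genes. Members and gene lists were chosen with earlier results of these data known. Counts of members were summed per library. Naloxone, response and sex fits used edgeR 4.0.16 (TMM factors, filterByExpr, robust quasi-likelihood) in R 4.3.3 with Benjamini-Hochberg adjustment over all genes tested, and the sex and response fits had the library as a block. DESeq2 1.42.0 was an alternative. The labels do not say that libraries came from separate sets of rats, so p-values measure the spread between these libraries. The edgeR step of the naloxone fit was also run on simulated counts with 200 changed genes. It recovered 61% of them at a log2 change of 1 and 89.5% at 2, with 5 and 7 false calls. Named genes were those called at 10 CPM or more (beyond 10 a side, the largest), and, where a fit called under 3, the 5 of smallest p in each direction at 20 CPM or more with groups that do not overlap; Col5a3 was below that level and was added after its values were seen. Identity genes were the 20 highest and 10 lowest ratios to other GABA nuclei. Sub-clusters came from Leiden clustering of the members alone. Symbols on more than 1 gene identifier (289, Gnas and Mt1 among them) were left out of list counts, and Chat, Slc18a3, Tac1, Mt2, Stmn1, Dusp1 and Junb are not analysed here. A few genes that these rules select are not reported here.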

Additional observations from a re-analysis of the deposited data

Results flagged for a closer look

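In 8 comparisons the naloxone response of island-like nuclei differed from that of another population by a test of the difference itself (edgeR, class by treatment term). Against Drd2 spiny nuclei the log2 differences were -1.40 for Homer1, -3.87 for Nr4a3, -1.98 for Siah3, -1.02 for Epb41l4b and 3.5 for Col5a3. Against Chst9 nuclei the difference was -1.04 for Homer1. Against Drd1 spiny nuclei it was -1.53 for Arid5b and 1.74 for Alk. Homer1 and Nr4a3 against Drd2 spiny nuclei kept their calls with each library omitted. Groups of 3 libraries were too small for an outlier check.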

How the results depend on the processing

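No paired analysis was possible because the saline and naloxone libraries share no replicate number. For naloxone against saline in island-like nuclei the count of 1 called gene became 2 with DESeq2, 27 with no filter on low counts, 0 with doublets removed, 7 with nuclei carrying Xist and Y-linked UMIs removed, 10 under the stricter rule, 0 under the wider rule and 0 with sums by sex and sex as covariate (sexed members only, 4576 genes tested), and 0 to 11 with a library left out. For the response against Drd2 spiny nuclei the count of 5 became 24 with no filter and 3 with DESeq2 (2 to 20 with a library left out). Against Chst9 nuclei the count of 1 became 26 with no filter and 0 with DESeq2 (1 to 6 with a library left out). Against Drd1 spiny nuclei the count of 2 became 0 with DESeq2 and 1 with Drd1 nuclei of at least 1 UMI, an alternative chosen after seeing the data (0 to 2 with a library left out). Female against male calls went from 2 to 9 with no filter and 1 without the library block, and calls of a sex difference in the response from 0 to 3 with no filter. The sex by class fits, chosen after seeing the data, called 0 genes against Chst9 nuclei and 0 to 1 with a library left out. The female share difference of 0.483 points became -3.18 with stricter sexing and -3.79 under the stricter rule, and ran from -3.03 to 4.35 with a library left out. The cause of these shifts was not tested. The share difference between treatments was positive in all 12 alternatives (0.599 to 1.97 points); no p under 0.1 was possible. Zfp804b stayed higher in all 15 alternatives and lost its call in 5. Depth limits Nr4a3, which rests on 1 to 18 UMIs per library, and the sexed sums, with 21 to 85 nuclei each.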
